A study of Mus musculus with 10 samples.

Results

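Pancreas tail pieces of mice with both alleles of the insulin receptor gene Insr floxed (Insr KO, 4 libraries) were compared with pieces of mice with 1 floxed allele (Insr Het, 3 libraries). The 7 libraries were taken by their genotype labels from the 10 of the series, and each is named by its label and the number in its title, read here as the mouse (KO-2079). All 7 mice were female and 12 weeks old, and the genotype they shared included Ptf1aCreER, a Cre recombinase that tamoxifen activates and that the acinar gene Ptf1a drives, and the nuclear colour reporter nTnG. Het mice were Insr w/f and KO mice Insr f/f. The 3 libraries labelled Insr WT (Insr w/w) entered no test and are quoted for their levels alone. The comparison asks what floxing of the other Insr allele adds to floxing of the first.

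The insulin receptor is a tyrosine kinase at the cell surface. Through the IRS adaptors, PI3K and AKT it raises protein and lipid synthesis, and it keeps FOXO transcription factors out of the nucleus. Acinar cells, which make the digestive enzymes, lie next to the islets and are reached by blood rich in insulin. Cre driven by Ptf1a acts in acinar cells, so islet, duct, immune and stromal cells of the same piece would keep their receptor. The receptor was not measured by cell type. In such a piece fewer cells of a type and less RNA per cell cannot be told apart.

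No gene differed between KO and Het libraries past the threshold. Of 12852 genes tested with edgeR's quasi-likelihood test, 0 passed an adjusted p of 0.05, which is 0% of those tested, and the smallest adjusted p was 1.0. An unadjusted p under 0.05 was reached by 114 genes (0.887%), of which 78 were higher in KO (0.607%) and 36 lower (0.28%). That is below the share of 0.05 that a calibrated test gives on average where nothing differs. Why low p-values were this scarce was not tested, so 0 genes passing does not show that the groups were alike. DESeq2 also called 0 genes, with 95 (0.739%) at an unadjusted p under 0.05, and limma voom with library weights called 0, with 157 (1.22%). The groups' ranges did not overlap for 313 genes (2.44%), of which 181 were higher (1.41%) and 132 lower (1.03%) in KO. The median log2 fold change over all genes was 0.02, and 53.2% of genes leaned higher in KO. The split of 78 higher and 36 lower genes moved with scaling: it was 63 and 47 when enzyme genes were kept out of the scaling (0.856% of genes in all), and 5 and 1 by library size alone (0.0467%), which shifted the median of all genes to 0.16.

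Read at face value, the intervals show which changes these mice could have hidden. They come from the same edgeR fit as the scarce low p-values, and their coverage in these data was not tested. The median standard error of a log2 fold change was 0.26. For 9102 genes (70.8%) the 95% interval lay between -1 and 1, within a doubling or halving. Of the 4547 genes with a mean of at least 10 CPM, counts scaled to a common library total, 95.6% had such an interval, and 9 had a fitted log2 fold change beyond 1 in either direction. Of the 8305 genes under 10 CPM, 57.2% had an interval between -1 and 1 and 94.2% one between -2 and 2. Where an interval reached past -1 or 1, a halving or a doubling in that direction was not excluded.

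KO mice differed from each other as much as from Het mice. Pairs of KO libraries had a Pearson r of 0.910 to 0.948 across genes (6 pairs, log2 CPM), Het pairs 0.949 to 0.960 (3 pairs), and mixed pairs 0.923 to 0.969 (12 pairs). Genes are not independent replicates, and pairs share libraries, so these are descriptions. The least alike pair was KO-2070 with KO-2124, and the most alike was Het-2042 with KO-2079. On the first principal component, with 39.2% of the variance, KO-2070 and KO-2126 stood at -46.6 and -42.6 and KO-2124 and KO-2079 at 41.1 and 23.2. All 3 Het libraries lay between these KO extremes, at -4.48, 2.54 and 26.9. The SD of log2 CPM was larger among KO than among Het libraries for 64.8% of genes, with medians of 0.34 and 0.27.

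**Figure D1:**
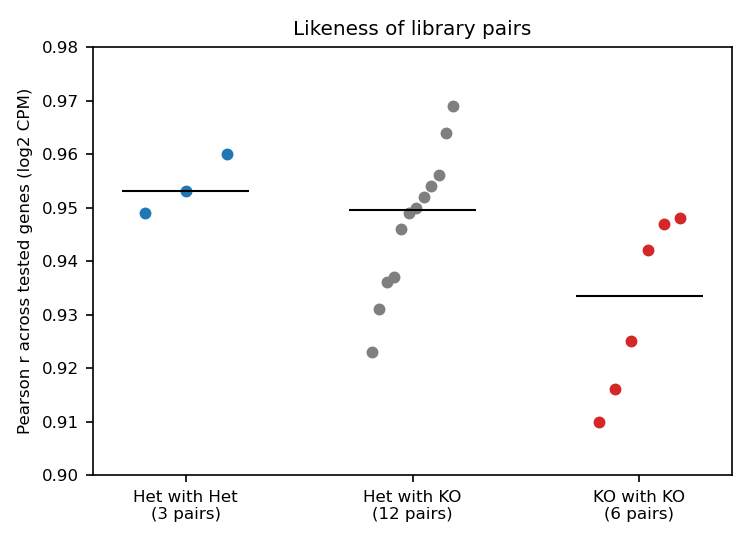
Pearson r across 12852 genes (y axis, log2 CPM) for each pair of libraries, grouped by the labels of the pair (x axis), with a line at each median. Pairs of KO libraries reach down to 0.910, and no KO pair exceeds 0.948, below every Het pair.

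Digestive enzyme genes took 71.6%, 76.4% and 72.0% of the gene counts in Het-2066, Het-1770 and Het-2042. They took 71.1%, 77.7%, 62.6% and 77.7% in KO-2079, KO-2070, KO-2124 and KO-2126. KO-2124 was the lowest. KO-2079 lay just below the Het range, and KO-2070 and KO-2126 lay above it. The Het mean was 73.4% ± 2.67 (SD, n = 3). The KO mean was 72.3% ± 7.14 (SD, n = 4), which differs by -1.07 percentage points. The KO mean was the higher one without KO-2124, and also without Het-1770. No Wilson 95% interval of a share was wider than 0.0477 points, which covers counting error only. Gene counts per library ranged from 12028969 to 19024351. Counts that fell in no gene were 8.71% for KO-2124, against 2.59% to 5.14% for the remaining 6 libraries.

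Insr was counted in every library. Its level was 34.2, 34.8 and 22.7 CPM in Het-2066, Het-1770 and Het-2042, and 18.4, 26.6, 28.5 and 27.4 CPM in KO-2079, KO-2070, KO-2124 and KO-2126. The ranges overlapped, since Het-2042 lay below 3 of the KO libraries. The Het mean was 30.6 ± 6.86 CPM (SD, n = 3) and the KO mean 25.2 ± 4.61 CPM (SD, n = 4). The log2 fold change of KO against Het was -0.28 (SE 0.21, 95% interval -0.74 to 0.19, edgeR adjusted p = 1.0). It was -0.45 without Het-2042 and -0.15 without KO-2079, so a single library moved it by over 1.5 times. Counts per gene over the whole piece show neither loss of single exons nor recombination in acinar cells, so they do not check the labels.

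Insr lies on chromosome 8 at 3150922 to 3279649 (GRCm38.p6) and was the first tested gene of that chromosome. A floxed allele travels with the genes beside it, so the next 10 tested genes, from Arhgef18 to Trappc5, were read as a group. Of these, 0 of 10 had an unadjusted p under 0.05 in edgeR, against 0.887% of all genes. Their log2 fold changes ran from -0.25 (Pex11g) to 0.20 (Pnpla6), with a median of 0.01. Xab2, a splicing and DNA repair factor, had the smallest unadjusted p of the 10 in edgeR, 0.247, at 0.19 (SE 0.16).

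Other members of the receptor pathway did not differ past the threshold. Of 16 tested genes for insulin and IGF receptors and adaptors, 0 passed and 0 had an unadjusted p under 0.05 in edgeR. In KO 11 leaned higher (68.8%, against 53.2% of all genes), and the median log2 fold change was 0.04. Igf1r, the receptor for IGF-1, had 25, 17.4 and 17.3 CPM in Het and 20.3, 22.5, 23 and 22.4 CPM in KO libraries. The KO values lay inside the Het range, and the log2 fold change was 0.15 (SE 0.18, interval -0.24 to 0.54). The adaptors Irs1 and Irs2 stood at 0.34 (SE 0.28) and 0.33 (SE 0.31). Without Het-1770 they were 0.13 and 0.11, and Irs2 was 0.72 without Het-2066. The smallest unadjusted p of this list, 0.107 in edgeR, was that of Dok1, an adaptor that dampens kinase signals, at 0.46 (SE 0.27).

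The 27 genes of PI3K, AKT and mTOR had a median of 0.06, or -0.06 without KO-2126. Of these, 18 were higher (66.7%, against 53.2% of all genes), with 0 passing and 0 at an unadjusted p under 0.05 in edgeR. Foxo4, a FOXO factor, stood at 0.32 (SE 0.19) and the mTOR complex subunit gene Rictor at 0.39 (SE 0.26). They were 0.16 without Het-2066 and 0.20 without Het-2042. Of 15 tested genes that FOXO factors are known to raise, 13 leaned higher in KO (86.7%, against 53.2% of all genes), with a median of 0.14, 0 passing and 0 at an unadjusted p under 0.05. Fbxo32, a muscle-wasting ubiquitin ligase and textbook FOXO target, stood at 0.32 (SE 0.22, 0.15 without Het-1770), and Bcl6, a transcriptional repressor, went the other way at -0.43 (SE 0.24). The median was -0.05 in limma voom with library weights and 0.04 without KO-2126.

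Lipid synthesis genes leaned lower in KO. Of 19 tested fatty acid synthesis genes 14 were lower, 0 passed, 1 had an unadjusted p under 0.05 (Dgat2), and the median was -0.10, or -0.22 without Het-2066. Of all genes 46.8% were lower, and 0.887% had an unadjusted p under 0.05 in edgeR. Dgat2, which makes triglyceride, had 2.71, 4.34 and 7.34 CPM in Het and 3.31, 2.63, 2.78 and 3.03 CPM in KO libraries. The Het values spread nearly over the whole scale and the KO values were close together, inside the Het range except KO-2070. The log2 fold change of -0.71 (SE 0.32, unadjusted p = 0.0441 in edgeR) was -0.26 without Het-2042. Fasn, the fatty acid synthase, stood at -0.27 (SE 0.18) and the desaturase gene Scd1 at -0.40 (SE 0.27), or -0.16 without Het-2042.

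Cholesterol synthesis and uptake genes had 17 of 21 lower, against 46.8% of all genes, with 0 passing and 0 at an unadjusted p under 0.05. Their median of -0.13 was -0.24 without Het-2066 and -0.07 without Het-2042. Sqle, the squalene epoxidase, had 6.05, 6.03 and 7.64 CPM in Het and 6.02, 3.99, 4.78 and 3.67 CPM in KO libraries, ranges that just did not overlap. Its log2 fold change was -0.50 (SE 0.23, unadjusted p = 0.0521 in edgeR), and that of Msmo1, the next enzyme by p, -0.54 (SE 0.27). By library size alone both list medians were 0.03, below the shift of 0.16 in all genes.

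The genes that stood farthest apart were next described one by one. None passed. They are, for each direction, the 12 of lowest unadjusted p among genes with at least 2 CPM on average and separate ranges, so their separation follows from the choice and supports nothing.

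**Figure D2:**
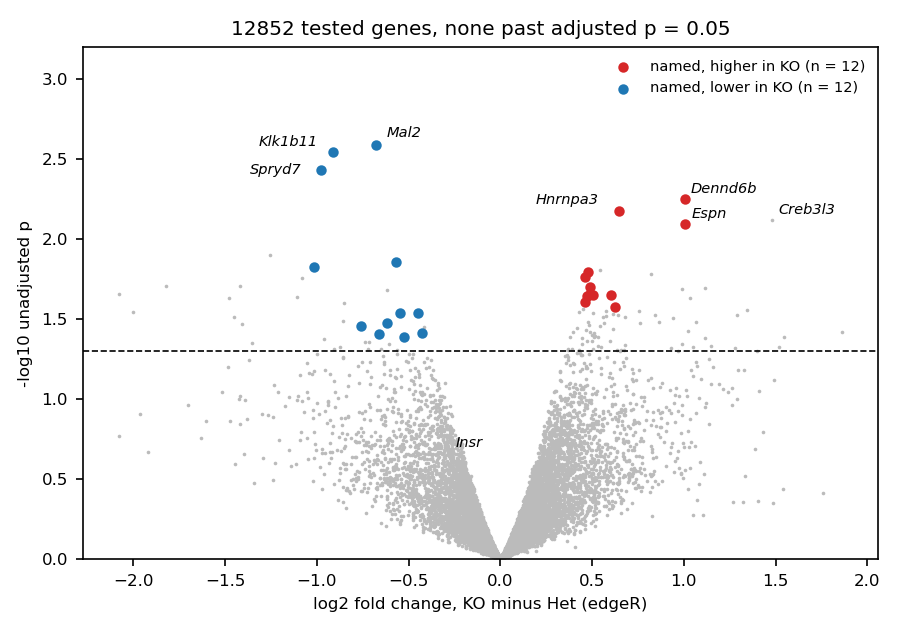
Log2 fold change of KO minus Het (x axis) against -log10 of the unadjusted edgeR p (y axis) for 12852 genes, with a dashed line at 0.05. Of the points above the line 78 lie to the right and 36 to the left, and Mal2 is the highest point.

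Mal2, a membrane protein that carries cargo to the apical surface of epithelial cells, had 15.3, 17.3 and 14.7 CPM in Het-2066, Het-1770 and Het-2042. It had 12.0, 7.88, 9.27 and 10.1 CPM in KO-2079, KO-2070, KO-2124 and KO-2126. All KO libraries were below all Het libraries. The log2 fold change was -0.68 (SE 0.18, interval -1.07 to -0.29), and its unadjusted p of 0.00258 in edgeR was the smallest of all genes. With all 10 libraries scaled together its mean was 25.5 CPM in WT, 19.8 in Het and 12.2 in KO.

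Klk1b11, a glandular kallikrein protease, had 7.31, 8.90 and 5.08 CPM in Het and 3.72, 4.62, 3.45 and 3.35 CPM in KO libraries. Het-2042 was the nearest to the KO range. The log2 fold change was -0.91 (SE 0.25). Kallikrein genes are near-identical copies of each other, so reads could have been split between them, and WT libraries ran from 0.656 to 7.35 CPM on the scale of all 10 libraries, where Het had a mean of 8.94 and KO 4.73. Spryd7, named for its SPRY domain, had 4.31, 4.63 and 3.84 CPM in Het and 1.81, 2.73, 1.78 and 2.48 CPM in KO libraries. The gap between the groups was wider than the spread inside either, at a log2 fold change of -0.98 (SE 0.27). Its lowest count was 26, in KO-2070.

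Gcc2, a golgin that tethers vesicles at the trans-Golgi, had 11.1, 8.60 and 11.9 CPM in Het and 8.28, 5.67, 7.31 and 7.03 CPM in KO libraries. The log2 fold change was -0.57 (SE 0.20), and KO-2079 nearly reached Het-1770. Mlph, which links Rab27 vesicles to a myosin motor, had 11.5, 8.82 and 9.66 CPM in Het and 8.58, 4.62, 7.31 and 6.55 CPM in KO libraries (-0.55, SE 0.22). Lamtor3, a subunit of the complex that holds mTORC1 on lysosomes, had 9.11, 10.8 and 10.1 CPM in Het and 6.23, 7.88, 8.16 and 7.03 CPM in KO libraries. That is a log2 fold change of -0.45 (SE 0.18). Dio1, the deiodinase that activates thyroid hormone, had a Het mean of 3.97 ± 0.947 CPM (SD, n = 3) and a KO mean of 1.91 ± 0.825 CPM (SD, n = 4), or -1.02 (SE 0.36). The others on the lower side were Smim22, the ubiquitin-activating enzyme gene Uba6, Bri3, the ubiquitin ligase gene Lnx1 and 0610007P14Rik, at -0.43 (Bri3) to -0.76 (Uba6).

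On the higher side Dennd6b, an exchange factor for Rab proteins of vesicle traffic, had 3.83, 2.28 and 3.6 CPM in Het and 4.77, 7.04, 9.31 and 4.87 CPM in KO libraries. KO-2124 stood highest, and the log2 fold change of 1.01 (SE 0.30) was 0.75 without it. Espn, which bundles actin in microvilli, had 1.32, 1.32 and 1.87 CPM in Het and 3.87, 2.73, 3.08 and 2.48 CPM in KO libraries. Its log2 fold change was also 1.01 (SE 0.32), from a lowest count of 18. Urod, an enzyme of haem synthesis, had 8.70, 9.70 and 11.7 CPM in Het and 13.7, 12.9, 14.2 and 15.2 CPM in KO libraries (0.48, SE 0.17). KO values of Urod were close together, and its mean in WT, 13.7 CPM on the scale of all 10 libraries, lay between 12.6 in Het and 17.5 in KO.

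The other 8 higher genes had log2 fold changes of 0.46 to 0.62, apart from Hnrnpa3 below. Rundc1 and the cohesin ring gene Smc3 were at 0.46 (SE 0.17 and 0.18). Ccdc97 and the chromatin reader gene Brpf1 were at 0.49 and 0.47 (SE 0.18 each), and Csad, an enzyme of taurine synthesis, at 0.48 (SE 0.19). Mcm7, of the replicative helicase, had a Het mean of 5.06 ± 0.321 CPM (SD, n = 3) and a KO mean of 7.17 ± 0.678 CPM (SD, n = 4), or 0.51 (SE 0.19). Atp5sl and Tbkbp1, an adaptor of the kinase TBK1, were at 0.60 (SE 0.23) and 0.62 (SE 0.25).

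**Figure D3:**
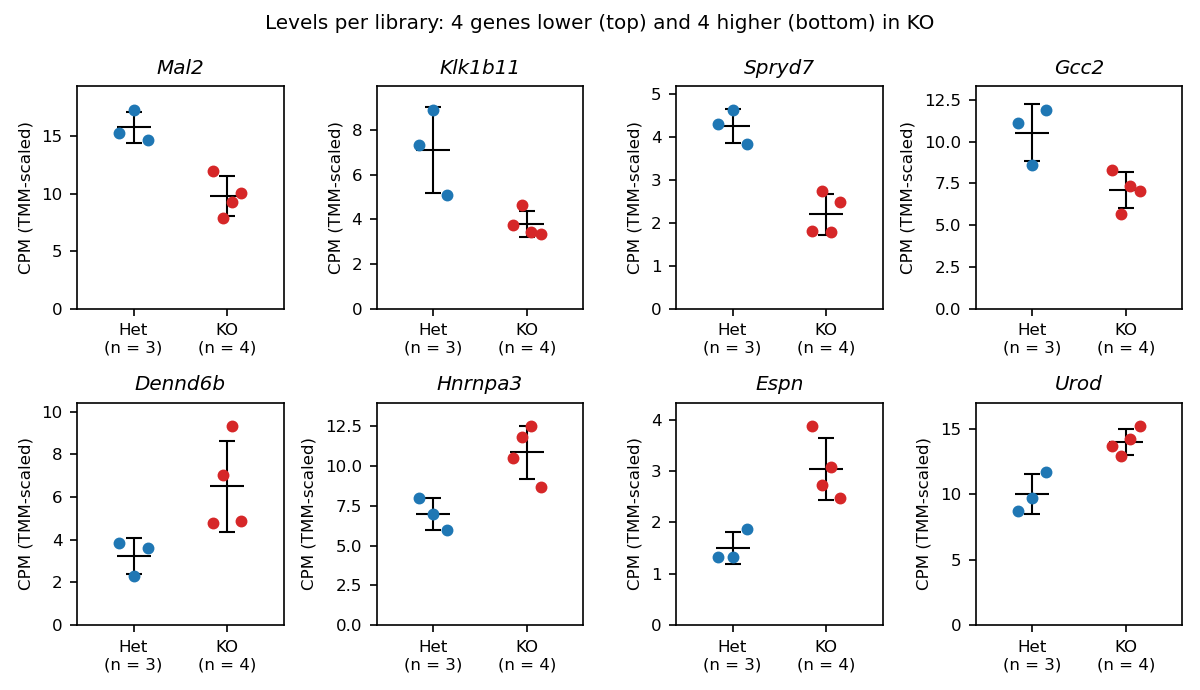
Levels in TMM-scaled CPM (y axes, from 0) of 4 genes lower (top) and 4 higher (bottom) in KO, with 1 point per library and bars for mean and SD. The genes were chosen for separate ranges, and Mal2 runs from 7.88 to 12.0 CPM in KO and from 14.7 to 17.3 CPM in Het.

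A graded response would place Het between WT and KO. On the scale of all 10 libraries this held for 1 of the 12 higher genes (Csad) and 4 of the 12 lower genes (Mal2, Mlph, Uba6 and 0610007P14Rik). For 9 of the higher and 5 of the lower genes WT lay between Het and KO, and for the other 2 and 3 KO lay between WT and Het. The Het libraries were used in choosing these genes and the WT libraries were not, and the order was not tested. WT means hold a library with few acinar counts, WT-2404, at 15.9% of counts in enzyme genes. Csad had 5.93 CPM there and 10.8 and 11.1 CPM in WT-1860 and WT-2067. Its Het mean was 9.64 CPM, so its WT mean lay below Het through WT-2404 alone.

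Promoters were read for the 24 genes because FOXO factors act through short elements. RefSeq windows (GRCm38.p6) of the 250 bases before a start site were matched for 19 of the 24, with 26 windows. Atp5sl, Mal2, Lamtor3, Uba6 and 0610007P14Rik were not matched. The forkhead motif GTAAACA, searched on both strands (also TGTTTAC), was in 0 of 26 windows and in 3.17% of all 32851 windows. The insulin response core CAAAACA (also TGTTTTG) was in 2 of 26 windows (7.69%), of Espn and Smc3, and in 5.56% of all windows. Both motifs end in AAACA, and no stretch can match both. Those of Espn and Smc3 are shown for their match and that of Spryd7 as one with none; capitals mark the motif, and each is written 5′ to 3′ on the gene's strand.
Espn, minus strand, chr4:152152390-152152639: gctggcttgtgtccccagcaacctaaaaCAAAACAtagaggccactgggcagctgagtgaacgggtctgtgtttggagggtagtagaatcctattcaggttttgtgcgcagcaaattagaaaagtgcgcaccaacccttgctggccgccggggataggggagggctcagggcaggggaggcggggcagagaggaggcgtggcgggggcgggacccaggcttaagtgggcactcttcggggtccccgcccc
Smc3, plus strand, chr19:53600146-53600395: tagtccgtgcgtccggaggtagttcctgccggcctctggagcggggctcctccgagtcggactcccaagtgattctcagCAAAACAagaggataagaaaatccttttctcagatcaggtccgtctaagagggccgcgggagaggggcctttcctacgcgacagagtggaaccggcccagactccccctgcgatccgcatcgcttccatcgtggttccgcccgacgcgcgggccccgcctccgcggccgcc
Spryd7, minus strand, chr14:61556887-61557136: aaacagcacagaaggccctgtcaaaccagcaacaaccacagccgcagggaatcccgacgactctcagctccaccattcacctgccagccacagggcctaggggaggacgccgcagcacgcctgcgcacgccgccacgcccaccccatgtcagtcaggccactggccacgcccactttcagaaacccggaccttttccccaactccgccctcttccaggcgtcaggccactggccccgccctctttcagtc
A match is a description of the letters, and its absence says nothing of the factor.

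Genes of the RNA-binding hnRNP family, which package and splice messenger RNA, leaned higher in KO. Of 24 tested, 21 were higher (87.5%, against 53.2% of all genes), 0 passed, and the median was 0.08. An unadjusted p under 0.05 was reached by 2, against 0.887% of all genes. The family's mean log2 CPM was 4.76, 4.68 and 4.73 in Het and 4.81, 4.83, 4.85 and 4.83 in KO libraries. These ranges did not overlap, though the distance was small. Of the 28 lists, 2 had mean levels with separate ranges, this one and the adipocyte list. Among single genes 2.44% had separate ranges, and whether 2 lists exceed chance was not tested. Hnrnpa3 had 8, 6.98 and 5.96 CPM in Het and 10.5, 11.8, 12.5 and 8.70 CPM in KO libraries, a log2 fold change of 0.64 (SE 0.20). Hnrnpa1 had 2.78, 3.38 and 3.11 CPM in Het and 4.37, 4.31, 4.97 and 4.55 CPM in KO libraries (0.56, SE 0.23). Both genes have many near-identical pseudogene copies, so their counts are uncertain.

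The acinar programme showed no difference past the threshold. The 10 genes with the most counts, all of digestive enzymes or their cofactors, made up 58.1% of the counts of the 7 libraries, and their log2 fold changes ran from -0.14 (Prss2, a trypsinogen) to 0.11 (Pnlip, the pancreatic lipase), 3 higher and 7 lower in KO. Of 28 tested digestive enzyme genes, 17 were lower and 11 higher in KO, 0 passed, 0 had an unadjusted p under 0.05 in edgeR, and the median was -0.04. Ctrb1, chymotrypsinogen, stood at -0.07 (SE 0.49, interval -1.14 to 1), and its sign changed with single libraries, to 0.22 without Het-1770 and 0.18 without KO-2124. Acinar transcription factor genes had a median of -0.02 over 14 genes, 7 in each direction and 0 at an unadjusted p under 0.05. Ptf1a, which drives the Cre and specifies acinar cells, had 15, 19.6 and 10.1 CPM in Het and 12.8, 26.4, 9.64 and 16 CPM in KO libraries. The groups overlapped wholly, at 0.11 (SE 0.33), and the sign changed to -0.23 without KO-2070 and to -0.11 without Het-2042. Rbpjl, its partner in adult acinar cells, stood at 0.45 (SE 0.32), and at 0.14 without KO-2124.

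Secretion and folding genes gave small values too. The 28 zymogen granule and apical secretion genes had a median of -0.02 and 0 passing. Mal2 was the only 1 at an unadjusted p under 0.05, against 0.887% of all genes in edgeR. The 22 ER chaperone and disulfide isomerase genes ran from -0.16 to 0.19, with a median of -0.01 and 0 at an unadjusted p under 0.05 in edgeR. Hsp90b1, the ER chaperone GRP94, was at the top of that range (SE 0.22). Of 30 genes of the unfolded protein response and the ATF4 stress response 0 passed, and the median was 0.04. An unadjusted p under 0.05 in edgeR was reached by 1 gene, against 0.887% of all genes. That gene, Creb3l3, is a membrane-bound transcription factor best known in liver lipid metabolism. It had 0.626, 0.956 and 0.936 CPM in Het and 4.22, 1.68, 1.48 and 2 CPM in KO libraries, from counts of 9 to 84. All KO values were higher, KO-2079 most of all, and the log2 fold change of 1.48 (SE 0.47) was 1.02 without that library. The 76 ribosomal protein genes had a median of -0.01 and ran from -0.10 to 0.30, and the 32 translation factor genes had a median of 0.00. Neither list had a member at an unadjusted p under 0.05 (0 genes each in edgeR).

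Inflammatory genes did not separate the groups. Of 28 listed mediators 18 passed the filter on low counts, 11 of them leaned higher and 7 lower in KO, 0 passed the test, and the median was 0.05. Without KO-2124 the median was -0.20 and without KO-2126 0.38. Ccl5, a chemokine for T cells, was the 1 mediator at an unadjusted p under 0.05, against 0.887% of all genes. It had 0.557, 0.221 and 0.591 CPM in Het and 1, 1.47, 1.56 and 0.479 CPM in KO libraries. KO-2126 lay inside the Het range, at a log2 fold change of 1.28 (SE 0.58, unadjusted p = 0.0482 in edgeR). The cytokine gene Il1b stood at 0.74 (SE 0.78), or 0.38 without Het-2042. Saa3, an acute phase protein, stood at 0.64 (SE 0.72) and at -0.38 without KO-2124, so 1 library set its sign.

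Of 19 tested interferon-stimulated genes 17 leaned higher in KO (89.5%, against 53.2% of all genes). Of the 19, 0 passed, 0 had an unadjusted p under 0.05 in edgeR, and the median was 0.24. Gbp2, an interferon-induced GTPase, had 8.35, 5.73 and 5.62 CPM in Het and 7.73, 15.2, 13.5 and 5.75 CPM in KO libraries, so KO-2070 and KO-2124 were high while KO-2079 and KO-2126 lay inside the Het range (0.68, SE 0.32). The list median was 0.05 without KO-2124 and 0.53 without Het-2066. In KO-2124 the T and B cell genes summed to 36.5 CPM, against 11.2, 11.4 and 4.39 CPM in the other KO and 12.6 to 14.0 CPM in the Het libraries. The median of the 12 tested T and B cell genes was 0.50, with 0 passing and 0 at an unadjusted p under 0.05, and it was -1.22 without KO-2124 and -0.47 in limma voom with library weights. The part of these cells in the interferon values was not tested.

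Reg family genes, secreted lectins that pancreas makes in injury, had all 6 tested members lower in KO, against 46.8% of all genes. The median was -0.87, with 0 passing and 0 at an unadjusted p under 0.05 in edgeR. Reg3b had 2230, 2570 and 687 CPM in Het and 1400, 111, 426 and 848 CPM in KO libraries. The groups overlapped, with KO-2070 lowest and Het-2042 below 2 of the KO libraries. Its log2 fold change was -1.39 (SE 0.76, interval -3.12 to 0.34). Reg3g, close to it in sequence and place, was at -1.60 (SE 0.95) and Reg2 at -0.62 (SE 0.45, -1.07 without KO-2079). The list median was -1.53 without KO-2079 and -0.53 without Het-1770.

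Ductal and metaplasia genes had 21 of 27 lower in KO, 0 passing, 0 at an unadjusted p under 0.05 and a median of -0.15, against 46.8% of all genes lower. Without KO-2079 the median was -0.46. Gkn2, a stomach gene that metaplastic pancreas can express, had 30.7, 93.0 and 263 CPM in Het and 43.0, 0, 61.2 and 16.5 CPM in KO libraries. KO-2070 had no count of it, and the log2 fold change was -2.08 (SE 1.34), or -1.02 without Het-2042. Muc5ac, a gastric mucin, was also listed at 0 in KO-2070 and stood at -1.40 (SE 1.03), or -0.91 without Het-2042. Krt19, the duct keratin, was at -0.64 (SE 0.47), with -0.29 without Het-2042 and -1.01 without KO-2079. The list summed to 2590 to 4530 CPM in Het and 2510 to 3530 CPM in KO libraries.

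Other cells of the piece varied by mouse. Islet genes had 1 of 25 tested members at an unadjusted p under 0.05, against 0.887% of all genes in edgeR, with 0 passing. They were lower in KO for 25 of 25, against 46.8% of all genes, with a median of -0.36. They summed to 6130, 4160 and 8400 CPM in Het and 4060, 7170, 3800 and 3040 CPM in KO libraries, so the groups overlapped, and genes of one cell type in one piece are not independent. Slc30a8, the zinc transporter of beta cells, had 19.5, 11.6 and 18.4 CPM in Het and 13.5, 14.8, 7.49 and 7.83 CPM in KO libraries (-0.61, SE 0.27). Ins2 stood at -0.52 (SE 0.36, -0.28 without Het-2042), and Gcg, glucagon, at -0.28 (SE 0.41) and 0.18 without Het-2042. Without that library the list median was -0.05. None of the 25 markers was at 0 in all 7 libraries (0 genes), and Insr in islet cells alone was not measured.

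Adipocyte genes had 9 of 13 lower, against 46.8% of all genes, with 0 passing and 0 at an unadjusted p under 0.05. Their median of -0.29 was -0.05 without Het-2042 and -0.62 without Het-2066. Cfd, adipsin, was at -1 (SE 0.46), Plin4, a lipid droplet coat protein, at -0.62 (SE 0.33) and the leptin gene Lep at -0.93 (SE 0.58). Without Het-2042 Cfd was -0.60 and Lep -0.33, and without KO-2079 Plin4 was -0.37. The mean log2 CPM of the list was 2.39 to 3 in Het and 2.03 to 2.38 in KO libraries. These ranges just did not overlap, as in 2 of the 28 lists and in 2.44% of single genes. The summed level did overlap, at 191 to 206 CPM in Het and 183 to 239 CPM in KO libraries. Het-2042 was highest both for the islet sum and for the mean level of the adipocyte genes.

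Myeloid and fibroblast genes split the KO mice. The myeloid list summed to 481 and 561 CPM in KO-2079 and KO-2124 and to 149 and 170 CPM in KO-2070 and KO-2126, with Het libraries at 264 to 403 CPM between them. Its median was 0.02 over 17 genes. Fibroblast and matrix genes summed to 1620 and 1150 CPM in KO-2079 and KO-2124 and 687 and 703 CPM in KO-2070 and KO-2126, against 723 to 1430 CPM in Het libraries, with a median of -0.10 over 22 genes. Each list had 0 genes passing and 0 at an unadjusted p under 0.05 in edgeR. Endothelial, mesothelial and nerve genes had medians of 0.05, 0.24 and 0.05 over 13, 6 and 2 tested genes, and 0 genes of theirs had an unadjusted p under 0.05. Without single libraries the mesothelial median ran from -0.12 to 0.60 and the nerve median from -0.59 to 0.73. Of the 28 list medians, 18 took both signs when each library was left out in turn. The 10 that kept 1 sign were those of insulin receptors and adaptors, FOXO-raised, fatty acid, cholesterol, hnRNP, Reg, interferon, ductal, islet and adipocyte genes.

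**Figure D4:**
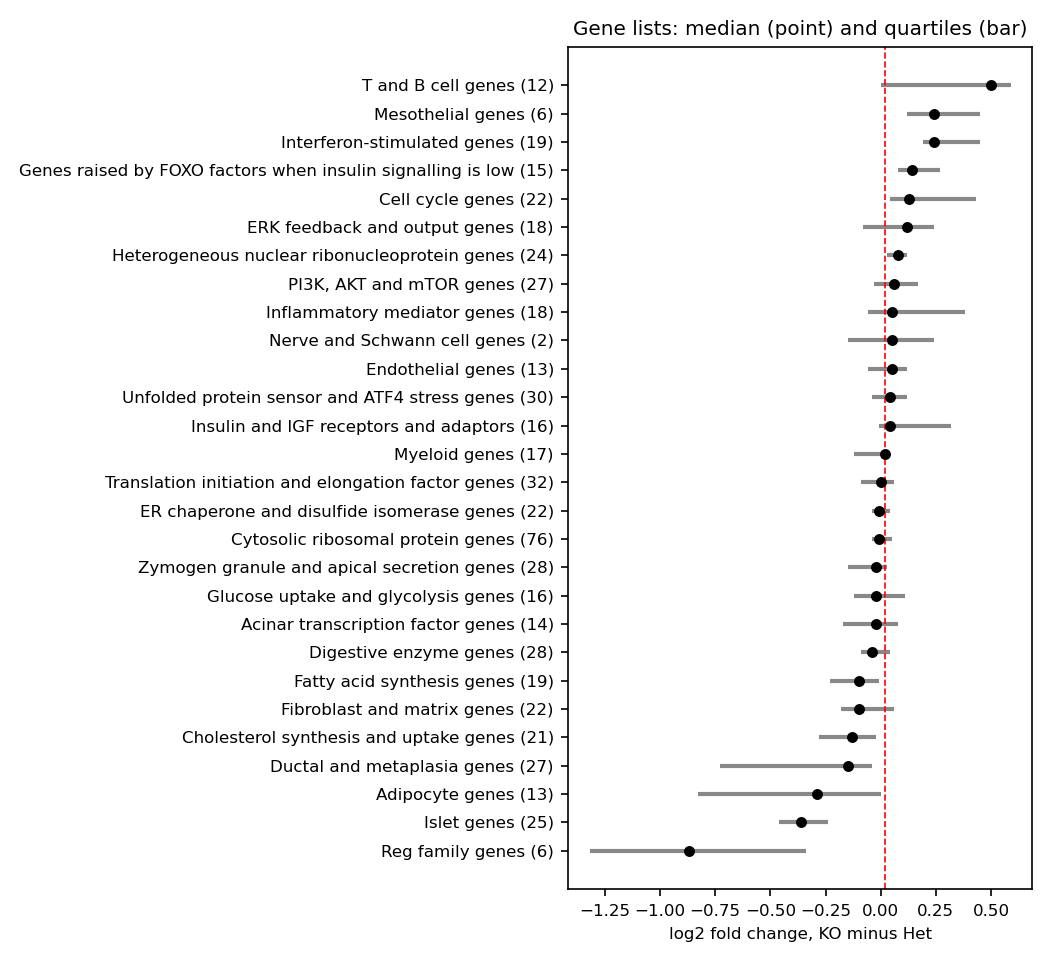
Median log2 fold change of KO minus Het (points) and quartiles (bars) for 28 gene lists, with the number of tested genes in brackets and a dashed line at the median of all genes, 0.02. Medians run from -0.87 for the Reg family to 0.50 for T and B cell genes, and most lists lie near the dashed line.

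Growth and signalling lists had small medians too. Cell cycle genes had a median of 0.13 over 22 genes, with 17 higher in KO (77.3%, against 53.2% of all genes), and -0.45 without KO-2124. ERK output genes had 0.12 over 18, with 11 higher, and -0.07 without KO-2079. Glycolysis genes had -0.02 over 16, with 7 higher. Each list had 0 genes at an unadjusted p under 0.05 in edgeR. Over all lists 586 genes were tested, 0 passed, and 7 (1.19%, against 0.887% of all genes) had an unadjusted p under 0.05. They were Mal2, Hnrnpa3, Creb3l3, Hnrnpa1, Dgat2, Slc30a8 and Ccl5.

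**Figure D5:**
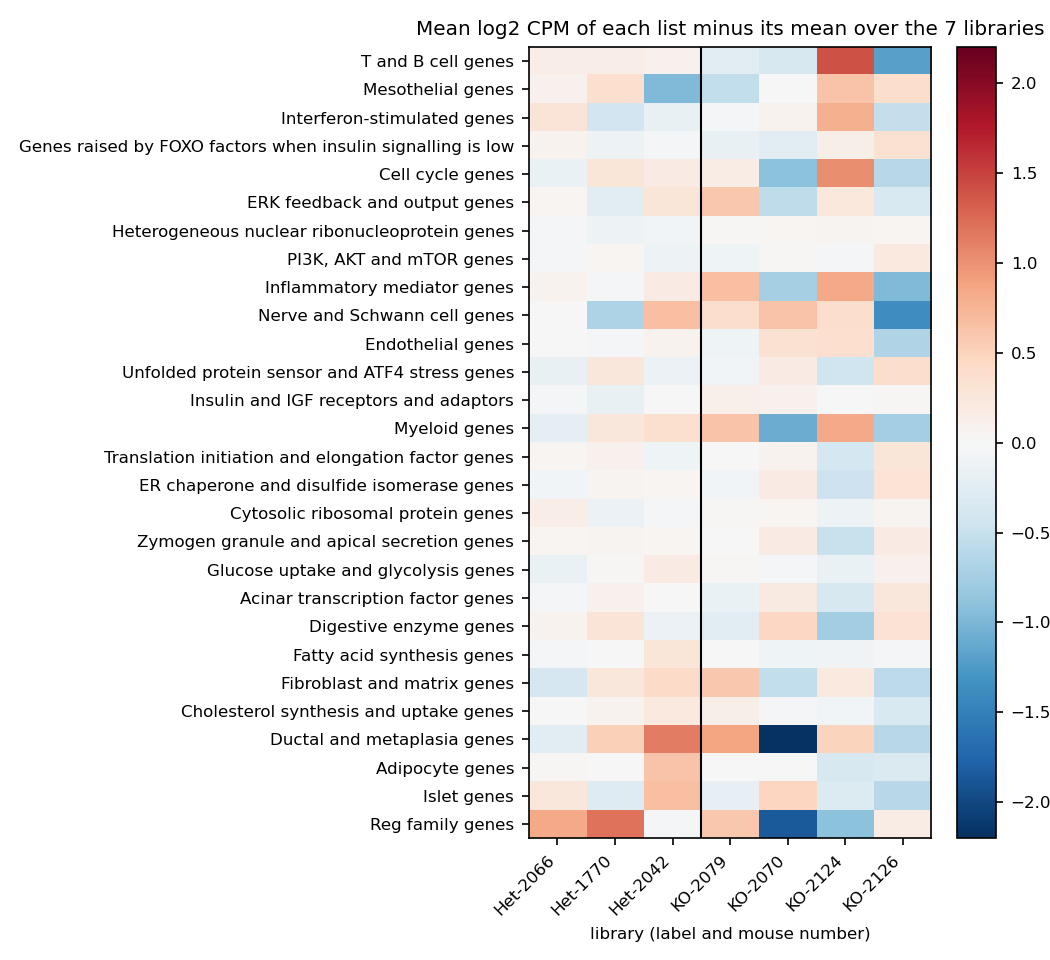
Mean log2 CPM of each gene list (rows) in each library (columns) minus the list's mean over the 7 libraries, from blue (lower) to red (higher), with a line between Het and KO. KO-2070 and KO-2126 are low and KO-2079 and KO-2124 high for myeloid, fibroblast and inflammatory genes, while the hnRNP row changes little.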

How the data were processed

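The authors deposited 1 table of raw counts per gene symbol, with 1 column per mouse. Per the submitters' processing notes the build was mm10 and DRAGEN, STAR and Cufflinks were used. The counting tool and its use of strand are not given in the sources used here, so overlapping and antisense genes are uncertain. Per the labels' protocols, a Qiagen kit gave the total RNA, and the NEBNext Ultra II kit for stranded mRNA followed. A further part of the genotype, shared by all groups, is not reported here. All 10 columns were matched by name (0 left over). The table's 2 summary rows were dropped before scaling. They held 2.59% to 8.71% (outside genes) and 0.101% to 0.295% (ambiguous) of the counts of the 7 libraries.

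Of 24421 genes, 6939 had no count in the 7 libraries and 12852 passed edgeR's filterByExpr (minimum count 10). Counts were scaled by TMM factors to CPM (counts scaled to a common total), and edgeR 4.0.16 (R 4.3.3) fitted the 4 KO and 3 Het libraries alone with a robust quasi-likelihood test, two-sided and adjusted by Benjamini and Hochberg. The WT libraries ran from 15.9% to 71.8% of counts in enzyme genes and would enter a shared spread. Log2 CPM used a prior count of 2. Where WT levels are given, all 10 libraries were scaled together. DESeq2 1.42.0 and limma 3.58.1 were alternatives. The test was checked on simulated counts, drawn gene by gene at the fitted spread. That check does not explain why low p-values were scarce in these libraries. Libraries of the same group differed by more than sampling noise (chi-square per degree of freedom 26.5 to 135). The labels number each library separately and give no batch.

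The members, the 29 gene lists, the design and the rule for named genes were chosen with earlier results of these data known. Genes were named if among the 12 per direction of lowest unadjusted p with at least 2 CPM on average and separate ranges, as Insr or Igf1r, as the 10 with the most counts, as neighbours of Insr, or as up to 4 members of a list with its lowest p and members that stand for its cell type or pathway. For Insr, the first and last neighbour and both ends of the range are named. The lists hold 648 genes, 2 of them in more than 1 list, and 640 are in the table. The NKG2D ligand list had no member past the filter (0 tested).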

Additional observations from a re-analysis of the deposited data

Results flagged for a closer look

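In the group of 4 KO libraries, 5 of 110 measures held 1 library set apart from its group by Dixon's 95% criterion on the gap, where chance gives about 5.5. All 5 concern KO-2124, and groups of 3 were not tested. The share of counts in no gene was 8.71% there, against 2.59% to 3.48% for the other KO libraries. Saa3 stood at 4.64 CPM against 0.735 to 1.36 CPM. Hsp90b1 stood at 153 CPM against 204 to 212 CPM. That rests on the scaling, since the TMM factor was 1.69 for KO-2124 and 1.1, 0.792 and 0.755 for KO-2079, KO-2070 and KO-2126. Before scaling, Hsp90b1 took a larger share of the gene counts in KO-2124 (4117 of 15963601) than in any other KO library. Amy2a5 stood at 0.445 CPM against 0 in the other 3, from 12 counts, and Ceacam2 at 0.0371 CPM against 0, from 1 count. With 0 in the other 3 libraries any count meets the criterion, so the flags of both genes carry no weight.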

How the results depend on the processing

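Every alternative gave 0 genes past the adjusted threshold, except that leaving out each library in turn gave 0 to 1. The 1 gene, Ceacam2, appeared without Het-1770 (adjusted p = 0.049 in edgeR). The number of genes at an unadjusted p under 0.05, 114 as reported, was 6 by library size alone, 230 with every gene of at least 1 count, 210 with the enzyme share as a covariate and 107 to 185 without single libraries (185 without KO-2126, 182 without KO-2079 and 174 without Het-2066). It was 103 with all 10 libraries in the fit, and 138 with WT-2404 left out of those, an alternative chosen after seeing the data. Of the 114 genes, 64 and 91 were shared with these. Without single libraries, log2 fold changes with a changing sign were -0.36 to 0.22 for Ctrb1, -0.23 to 0.34 for Ptf1a, -0.70 to 0.18 for Gcg and -0.38 to 1.54 for Saa3; the other 1224 recomputed values of single genes kept their direction and stayed short of the threshold. The enzyme share difference moved by less than the spread between mice in all 8 recomputations, but its sign changed without KO-2124 and without Het-1770. No paired analysis was possible because no mouse number is shared between the groups. The limit that a count of 0 allows, 3 counts, is 0.158 to 0.249 CPM, and of genes under 10 CPM 57.2% had a 95% interval between -1 and 1.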

Other observations

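Some genes under the filter on low counts, or outside the rule for naming, were chosen here after their values were seen. Raet1e, a ligand of the NKG2D receptor of killer cells, had 1, 0 and 0 counts in Het-2066, Het-1770 and Het-2042 and 9, 2, 12 and 4 counts in KO-2079, KO-2070, KO-2124 and KO-2126. The WT libraries had 20, 8 and 6 counts, so the Het libraries were the low ones. Raet1 genes are near-identical copies, and the count is uncertain. Hsd11b2, which inactivates glucocorticoids, had 7, 3 and 15 counts in Het and 2, 0, 4 and 1 in KO libraries, with 69, 18 and 12 in WT.

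Ceacam2, a cell adhesion gene, was on or off by mouse. It had 33, 0 and 62 counts in Het-2066, Het-1770 and Het-2042, 0, 0, 1 and 0 in the KO libraries, and 0, 1 and 57 in WT-2404, WT-1860 and WT-2067. Amy2a5, a pancreatic amylase with near-identical copies, had 15, 0 and 15 counts in Het, 0, 0, 12 and 0 in KO and 0 in all 3 WT libraries. For both genes libraries with counts and libraries without occurred under the same label.

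Psca, a surface antigen of stomach and of metaplastic pancreas, had 0.904, 5.15 and 7.05 CPM in Het and 1.51, 0, 1 and 1.44 CPM in KO libraries (log2 fold change -2.08, SE 0.76, unadjusted p = 0.0221 in edgeR). Cyp2c65, a cytochrome of the gut lining, had 1.04, 2.35 and 4.09 CPM in Het and 0.954, 0, 1.15 and 0.479 CPM in KO libraries (-1.82, SE 0.67). In both, Het-2066 lay inside the KO range.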
